A study of Mus musculus with 4 samples.

Results

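The FOS proteins, ATF3 and JDP2 are basic leucine zipper transcription factors. The genes described here are Fos, Fosb, Fosl1, Fosl2, Atf3 and Jdp2, read from every non-control probe whose RefSeq accession maps to one of these symbols. This gave 8 of 56605 probes and 6 of 45526 genes or unnamed transcripts on the array, and all 6 genes were among the 20505 that were tested. Fosb and Fosl2 have 2 probes each and the other members 1 each.

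The knockout (KO) cells were CD4+ T cells from mice lacking Irf4 (genotype Irf4-/-), set against wild-type (WT) cells, both from spleens of male C57BL/6 mice. Naive cells (CD62L+CD44-) were stimulated through CD3e with 1 µg/ml of the 2C11 antibody in the presence of syngeneic antigen-presenting cells treated with mitomycin C, and living CD4+ cells were sorted on day 2 for total RNA. Each genotype has 2 samples, which the design text says come from independent experiments, and each sample was read on 1 one-colour Agilent array. The labels' treatment protocol names shorter cultures than the design text; day 2, given in the titles, was used. Mouse age, how the Irf4 allele was made and whether a sample pools animals are not stated in the labels or the design text.

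FOS proteins cannot form stable pairs with each other; they pair with JUN proteins to form the activator protein AP-1, which binds the sequence TGANTCA. In T cells, antigen receptor and MAP kinase signals induce Fos within minutes of stimulation, while the smaller relatives JDP2 and ATF3 also pair with JUN proteins and mostly repress transcription. BATF proteins compete with FOS proteins for the same JUN partners, and BATF-JUN pairs bind composite DNA elements together with IRF4, the protein missing from the knockout cells.

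Fos and Jdp2 are consecutive protein-coding genes on chromosome 12, and Batf is the next gene after Jdp2. Sequences upstream of Fos, Jdp2 and Atf3 are shown because these 3 genes had the smallest p-values of the members and their upstream sequence shares a short motif, a choice made after the values were seen. Each is the 250 bases before the annotated start, 5′ to 3′ on the gene's strand, from RefSeq on build GRCm38.p6. Capitals mark TGACGT or its reverse complement ACGTCA, called the half-site here. TGACGT begins the cAMP response element TGACGTCA, which ATF, CREB and JUN proteins bind.
Fos, chr12:85473640-85473889, plus strand: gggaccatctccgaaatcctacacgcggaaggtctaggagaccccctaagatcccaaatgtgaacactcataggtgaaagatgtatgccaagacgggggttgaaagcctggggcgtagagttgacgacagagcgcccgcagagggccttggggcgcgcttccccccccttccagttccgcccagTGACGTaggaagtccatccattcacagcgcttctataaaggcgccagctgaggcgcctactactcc
Jdp2, chr12:85599166-85599415, plus strand: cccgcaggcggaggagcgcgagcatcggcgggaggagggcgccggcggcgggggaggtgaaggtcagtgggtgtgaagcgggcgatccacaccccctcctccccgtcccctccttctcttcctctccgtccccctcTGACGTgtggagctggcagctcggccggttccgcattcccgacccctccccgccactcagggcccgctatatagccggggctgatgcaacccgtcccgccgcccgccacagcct
Atf3, chr1:191183334-191183583, minus strand: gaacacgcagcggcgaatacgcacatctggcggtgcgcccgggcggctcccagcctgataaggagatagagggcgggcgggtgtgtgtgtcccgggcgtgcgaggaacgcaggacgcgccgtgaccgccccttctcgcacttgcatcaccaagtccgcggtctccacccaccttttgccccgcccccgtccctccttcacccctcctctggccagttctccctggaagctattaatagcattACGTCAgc

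The half-site began 66 bases before the start of Fos, 114 bases before the Jdp2 start shown and 8 bases before the start of Atf3. The second of 3 annotated Jdp2 starts is shown, and the windows at the other 2 starts had no match. The windows of Fosb and Fosl2 held no TGACGT on either strand and no window was read for Fosl1. Thus 3 of the 5 members with a window, and 3 of their 7 windows, held TGACGT. The shorter TGACG was not counted. It also stands in the Fosb window, before a C, and at another place in the Fos window, before an A. The window of Batf held TGACGT as well, beginning 98 bases before the start. Of 32851 windows of this length, 6.47% held TGACGT on either strand. The full AP-1 site TGANTCA (6.75% of windows) and the full element TGACGTCA (1.55%) had no match in any window of Fos, Fosb, Fosl2, Atf3 or Jdp2. TGACGTCA contains the half-site, and both strands were searched for each motif.

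Levels below are log2 of the processed signal relative to the array's 75th percentile, so a difference of 1 is a doubling, and n = 2 arrays per genotype throughout. Differences are Irf4 KO minus WT with limma's moderated standard error (SE) or 95% interval, and p-values are adjusted over all 20505 genes by the Benjamini-Hochberg method with a threshold of 0.05. The 4 arrays lay on 1 slide, with the replicate 1 arrays in slide row 1 and the replicate 2 arrays in row 2. WT arrays lay in slide column 1 and KO arrays in columns 3 and 2, so slide column and genotype cannot be told apart. Irf4 itself read 4.23 and 4.04 on the KO arrays and 5.03 and 4.74 on the WT arrays (difference -0.75 ± 0.20 SE, adjusted p = 0.231). A dimmer Irf4 probe differed by -0.37, at -0.21 and -0.21 on the KO arrays and 0.27 and 0.05 on the WT arrays. Where the Irf4 probes lie relative to the deletion is not known here, so these signals do not check the knockout.

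With the settings above, Jdp2 was the only member that passed the threshold. Its level was 2.21 and 2.62 on KO arrays 1 and 2, against -0.31 and 0.25 on WT arrays 1 and 2. In scanner units these were signals of 1374.4 and 1871.4 in KO cells and 272.4 and 363.7 in WT cells. The means were 2.42 ± 0.29 in KO cells and -0.03 ± 0.39 in WT cells (SD, n = 2 each), and the lower KO array lay 1.96 above the higher WT array. Jdp2, whose product pairs with JUN proteins and recruits histone deacetylases, was 5.45-fold higher in KO cells (95% interval 3.34 to 8.91; log2 difference 2.45 ± 0.27 SE; limma, adjusted p = 0.0465). The difference was 2.52 in slide row 1 and 2.37 in row 2. It ranked 138th by p-value, within the first 0.673% of genes tested, and 0.902% of genes tested differed by at least as much in either direction. With slide row, which equals replicate number, as a block, limma called 0 genes. There the same Jdp2 difference (SE 0.13) no longer passed (adjusted p = 0.0967). It also did not pass without WT replicate 1 (2.17, adjusted p = 0.124) or without WT replicate 2 (2.73, adjusted p = 0.122), and it passed in 8 of 14 alternative settings.

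**Figure D1:**
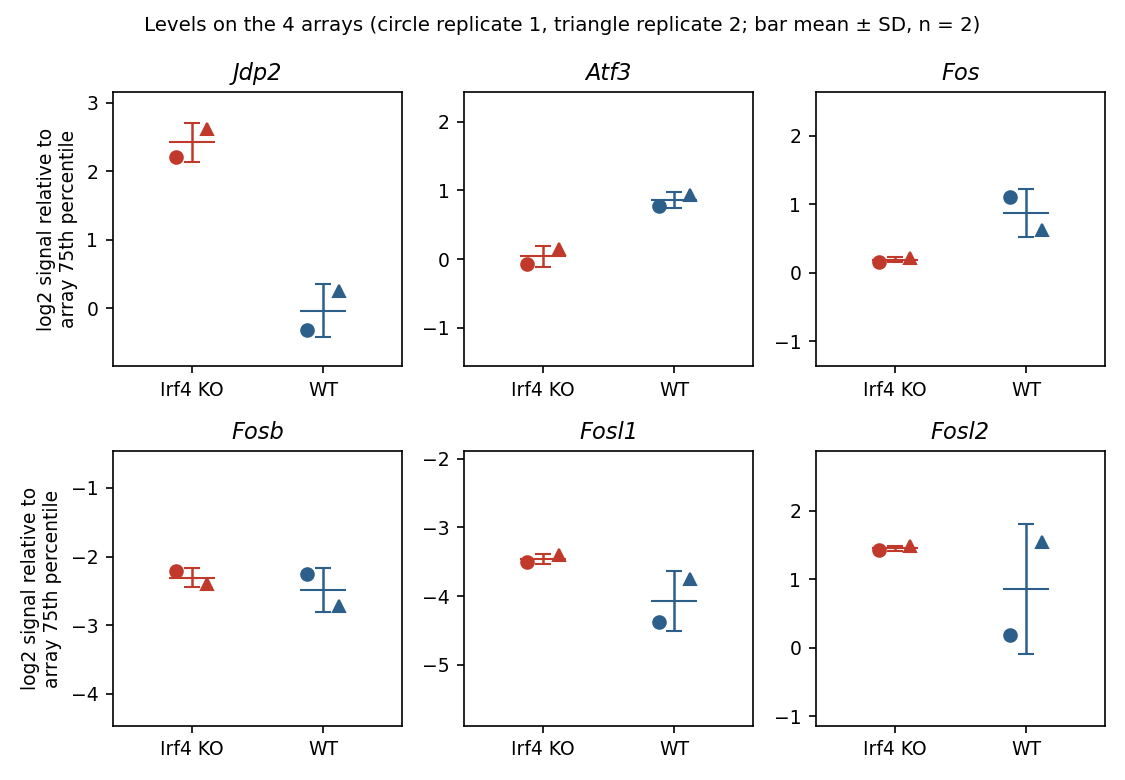
Level of each member on each array, as log2 signal over the array's 75th percentile; Irf4 KO is left of WT; every panel spans the same height. Circles are replicate 1, triangles replicate 2, and bars the mean ± SD of 2 arrays. The Jdp2 arrays lie 1.96 apart between genotypes, and the WT arrays of Fosl2 lie at 0.19 and 1.54 on either side of the KO arrays.

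Of the 6 members 1 was called, higher in KO cells, where 0.736% of all genes tested were called in either direction, 0.493% higher and 0.244% lower. The KO and WT arrays did not overlap for 4 members, Jdp2 and Fosl1 higher and Fos and Atf3 lower in KO cells. Across all genes tested 39.2% did not overlap, 17.9% higher and 21.3% lower in KO cells, so non-overlap by itself says little about a member. The median difference was 0.38 over the members and -0.02 over all genes tested.

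Atf3 and Fos had lower levels on both KO arrays without passing the test. Atf3, which stress and cytokine signals induce and whose product mainly represses transcription, read -0.07 and 0.15 on the KO arrays and 0.77 and 0.94 on the WT arrays. The arrays of each genotype lay close together, with a gap of 0.62 between genotypes. The Atf3 difference was -0.81 ± 0.19 (SE), a ratio of 0.569 (95% interval 0.408 to 0.792), with adjusted p = 0.176. It was -0.84 and -0.79 in slide rows 1 and 2, and it passed only with limma's trend and robust settings (adjusted p = 0.0286).

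Fos, the founding member of the family, with a short-lived transcript, read 0.16 and 0.21 on the KO arrays and 1.11 and 0.62 on the WT arrays. The KO arrays nearly coincided (SD 0.04) and the WT arrays lay further apart (SD 0.35). The difference of -0.68 ± 0.23 (SE) corresponds to a ratio of 0.624 (95% interval 0.416 to 0.937; adjusted p = 0.351). It was -0.95 in slide row 1 and -0.41 in row 2, -0.43 without WT replicate 1 and -0.93 without WT replicate 2, and it did not pass in any of the 14 alternative settings. RNA was taken 2 days after stimulation, so these values do not describe the early induction of Fos.

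The remaining FOS genes did not pass either. Fosl2, which encodes FRA-2, read 1.42 and 1.48 on the KO arrays and 0.19 and 1.54 on the WT arrays. The genotypes overlapped, because WT replicate 2 was above both KO arrays and WT replicate 1 far below them. The difference of 0.58 ± 0.46 (SE, adjusted p = 0.804) was 1.23 in slide row 1 and -0.06 in row 2, and -0.09 without WT replicate 1. A second, dimmer Fosl2 probe was well above background on KO array 1 and WT array 2 only. It read -3.07 and -4.42 on the KO arrays and -5.17 and -3.04 on the WT arrays, so WT replicate 1 was again the lower of the WT pair. On this probe KO array 2 was also low, and the row differences were 2.11 and -1.38.

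Fosl1, which encodes FRA-1, was dim, at signals of 26.1 and 28.7 in KO cells and 16.3 and 22.7 in WT cells. The lowest signals counted as well above background were 11.7 and 19.92 on the KO arrays and 11.97 and 18.26 on the WT arrays, so Fosl1 sat just over that limit. Its levels were -3.51 and -3.40 on the KO arrays and -4.38 and -3.75 on the WT arrays, a difference of 0.61 ± 0.26 (SE, adjusted p = 0.497). Without WT replicate 1 the Fosl1 difference was 0.30 and without WT replicate 2 it was 0.92. It was -0.03 when normexp background correction (offset 50) of median spot signals was combined with quantile normalization, and 0.51 with quantile normalization of the processed signals alone.

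Fosb read -2.21 and -2.40 on the KO arrays and -2.26 and -2.72 on the WT arrays, and the genotypes overlapped. Its difference was 0.18, with a 95% interval of -0.40 to 0.77 (adjusted p = 0.913), an interval that covers ratios from 0.757 to 1.70. The second Fosb probe was not well above background on any array, with signals of 2.8 and 4.8 in KO cells and 2.9 and 4.2 in WT cells.

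**Figure D2:**
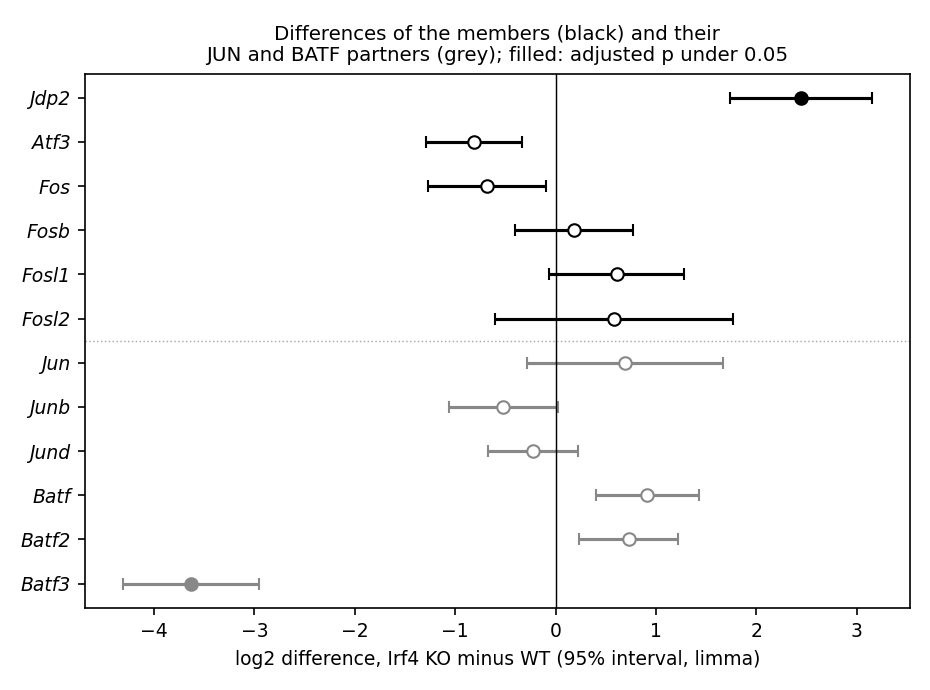
Log2 difference, Irf4 KO minus WT, with its 95% interval from limma for the 6 members (black) and the 6 JUN and BATF genes (grey); filled points passed at an adjusted p under 0.05. Jdp2 at 2.45 and Batf3 at -3.63 are the filled points, and the intervals of Fosb, Fosl1 and Fosl2 include 0.

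**Figure D3:**
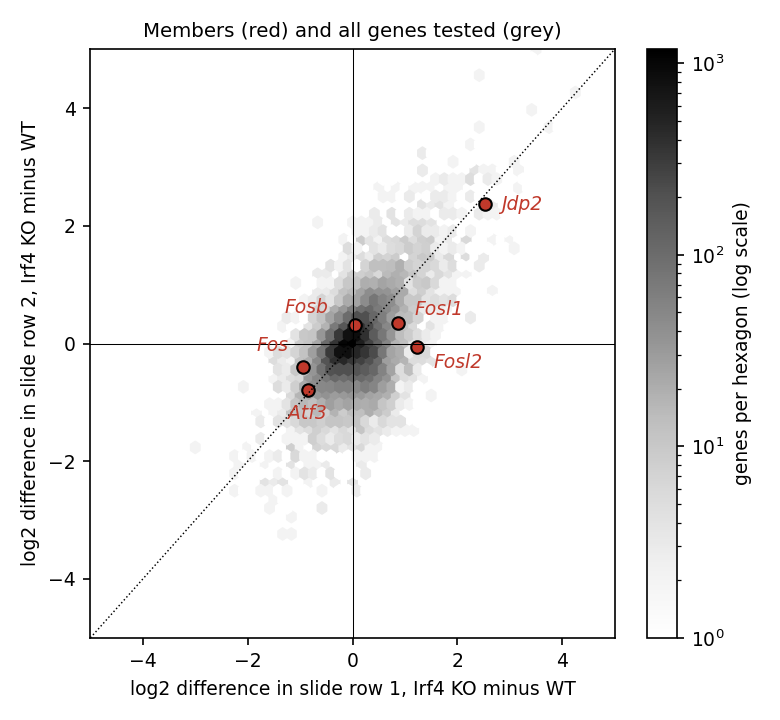
Difference between the KO and WT arrays of slide row 1 (horizontal) and of slide row 2 (vertical), in log2 units, for the members (red) and all 20505 genes tested (grey, darker where more genes fall). Jdp2 lies near the dotted line of equal differences at 2.52 and 2.37, Atf3 at -0.84 and -0.79, and Fosl2 off the line at 1.23 and -0.06.

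The proteins that pair with the members are encoded by the JUN genes, and the BATF genes encode their competitors. Of these 6 genes all were tested, Batf3 fell and 5 did not pass (median difference 0.23), where 0.736% of all genes tested were called. At an unadjusted p under 0.05 in limma there were 3 of the 6, against 11.4% of all genes tested, in a list chosen with earlier results known. Batf3 read -3.20 and -3.04 on the KO arrays and 0.20 and 0.83 on the WT arrays, 12.4-fold lower in KO cells (log2 difference -3.63 ± 0.26 SE, limma, adjusted p = 0.0318). The Batf3 call was lost with the replicate block (adjusted p = 0.0967) and without WT replicate 1 (0.0929) or WT replicate 2 (0.0922), and it held in 9 of 14 alternatives. Batf read 5.52 and 5.18 in KO cells and 4.37 and 4.50 in WT cells, a difference of 0.91 (adjusted p = 0.165). Batf2 differed by 0.73 (adjusted p = 0.228). Among the JUN genes, Jun differed by 0.69 (adjusted p = 0.638) with overlapping arrays, at 1.95 and 2.61 in KO cells and 1.17 and 2.01 in WT cells. Junb differed by -0.52 (adjusted p = 0.464).

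Genes beside the members were looked up in RefSeq order on GRCm38.p6, a set chosen after their values were seen. On chromosome 12, Tmed10 on the far side of Fos differed by -0.02 ± 0.18 (SE), Fos by -0.68, Jdp2 by 2.45 and Batf by 0.91. Neighbouring genes here thus had differences of opposite sign, and of these 4 only Jdp2 passed. On chromosome 1, Batf3 lies 2 protein-coding genes from Atf3, and their differences were -3.63 and -0.81. Beyond Atf3, Nenf differed by 0.26 and Pacc1 by -0.45, and neither passed (adjusted p = 0.847 and 0.428). Plb1, the next gene after Fosl2 on chromosome 5, encodes a phospholipase and read -1.68 and -1.39 on the KO arrays and -4.40 and -4.34 on the WT arrays (difference 2.83, limma, adjusted p = 0.0293), being above background on 1 of the 2 WT arrays. WT array 2 read below its lowest level counted as above background, -4.07, so Plb1 was tested because of its KO arrays. The Plb1 call was lost with the replicate block (adjusted p = 0.0967) and without WT replicate 1 (0.097) or WT replicate 2 (0.105), and its difference was 0.85 with normexp and quantile normalization (adjusted p = 0.0403).

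**Figure D4:**
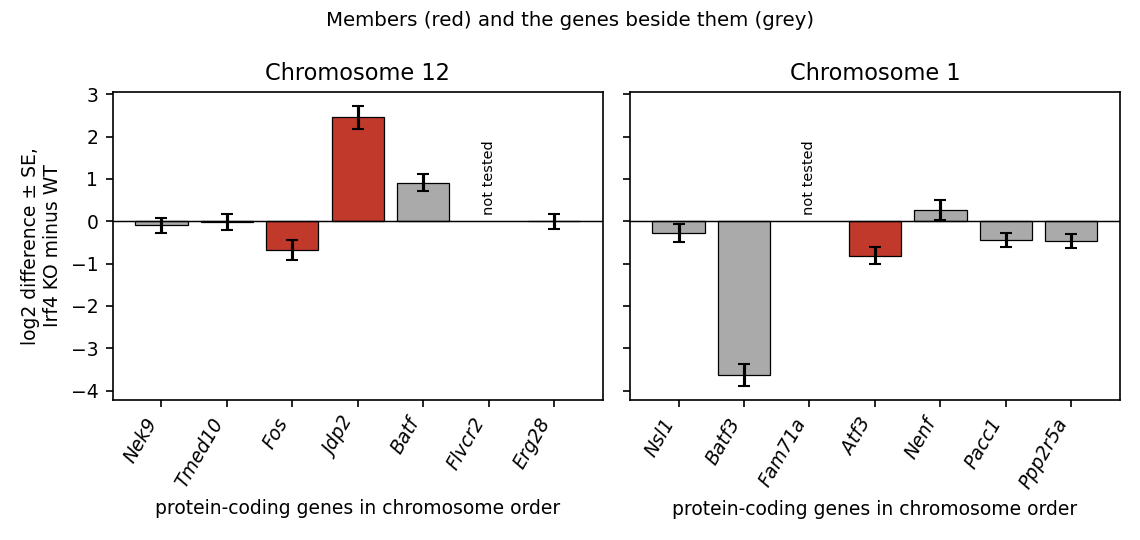
Log2 difference ± SE, Irf4 KO minus WT, of consecutive protein-coding genes around Jdp2 on chromosome 12 and around Atf3 on chromosome 1, in chromosome order; members are red, other genes grey, and genes below the signal filter are marked as not tested. Jdp2 stands at 2.45 between Fos at -0.68 and Batf at 0.91, and Batf3 at -3.63 stands near Atf3 at -0.81.

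Genes related to the members were read in lists. These were other basic leucine zipper factors (30 tested) and genes listed here as serum response genes (20 tested). The others were kinases and factors upstream of Fos (22 tested) and stress response genes around Atf3 (17 tested). In these lists 0 genes were called. Across all genes tested 0.736% were called, so 0 calls in lists of this size say little about their genes. At an unadjusted p under 0.05 in limma there were 4, 5, 3 and 6 genes in these lists, where 11.4% of all genes tested had such a p. List medians were -0.04, -0.09, 0.00 and -0.30, against -0.02 over all genes tested.

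Among serum response genes the orphan receptor gene Nr4a2 differed by 1.90 (adjusted p = 0.0717), at 1.84 and 1.95 in KO cells and -0.35 and 0.34 in WT cells. The zinc finger genes Klf2 (-1.23, adjusted p = 0.227) and Egr2 (-0.93, adjusted p = 0.208) and the early response gene Ier3 (-0.95, adjusted p = 0.620) had negative differences. The list's median was -0.20 in slide row 1 and 0.07 in row 2. Of the upstream genes, the ETS factor gene Elk3, whose product acts with serum response factor, differed by 0.98 (adjusted p = 0.117). The kinase gene Braf, whose product acts above the ERK kinases, differed by -0.55 (adjusted p = 0.304), and Mapk14, encoding p38 alpha, by -0.37 (adjusted p = 0.574).

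In the stress list 14 of 17 genes had negative differences, with a median of -0.35 in slide row 1 and -0.25 in row 2. The largest were Gadd45g (-0.97, adjusted p = 0.164), the mTORC1 inhibitor gene Ddit4 (-0.93, adjusted p = 0.197) and Cdkn1a, which encodes the cell cycle inhibitor p21 (-0.92, adjusted p = 0.338), while Gadd45b differed by 0.75 (adjusted p = 0.194). Of other basic leucine zipper genes above background on all 4 arrays, Crem differed by 0.80 (adjusted p = 0.317), Xbp1 by -0.72 (adjusted p = 0.277), Maff by -0.63 (adjusted p = 0.434) and Atf6 by -0.43 (adjusted p = 0.481). None of these 8 genes passed. Larger differences were read for 2 genes dim on some arrays, Maf (-2.99, adjusted p = 0.144) and Nfe2 (1.08, adjusted p = 0.473). Nfe2 was above background on 2 arrays and was tested because of its KO arrays. It read -4.28 and -3.48 on the KO arrays and -5.47 and -4.45 on the WT arrays. Maf was above background on 3 arrays and differed by -1.70 and -4.27 in slide rows 1 and 2.

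Of 22 genes known as AP-1 targets in T cells or other cells, 16 were tested, Csf2 rose and 15 did not pass (median 0.50), where 0.736% of all genes tested were called. At an unadjusted p under 0.05 in limma there were 10 of the 16, against 11.4% of all genes tested, in a list chosen with earlier results of these data known. Csf2, which encodes GM-CSF, was 24.4-fold higher in KO cells (limma, adjusted p = 0.0318), at 3.03 and 4.05 on the KO arrays and -0.86 and -1.28 on the WT arrays. The Csf2 call was lost with the replicate block (adjusted p = 0.116) and without WT replicate 1 (0.0995) or WT replicate 2 (0.123), and it held in 9 of 14 alternatives. The cytokine gene Il3, a neighbour of Csf2 in the genome, differed by 2.25 (adjusted p = 0.215), and its KO arrays lay apart at 0.35 and 2.04. Il4 differed by -2.08 (adjusted p = 0.0561), the urokinase receptor gene Plaur by 1.54 (adjusted p = 0.0893) and the heme oxygenase gene Hmox1 by -1.46 (adjusted p = 0.0764). Genes of this list thus had differences of both signs, 10 positive and 6 negative.

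**Figure D5:**
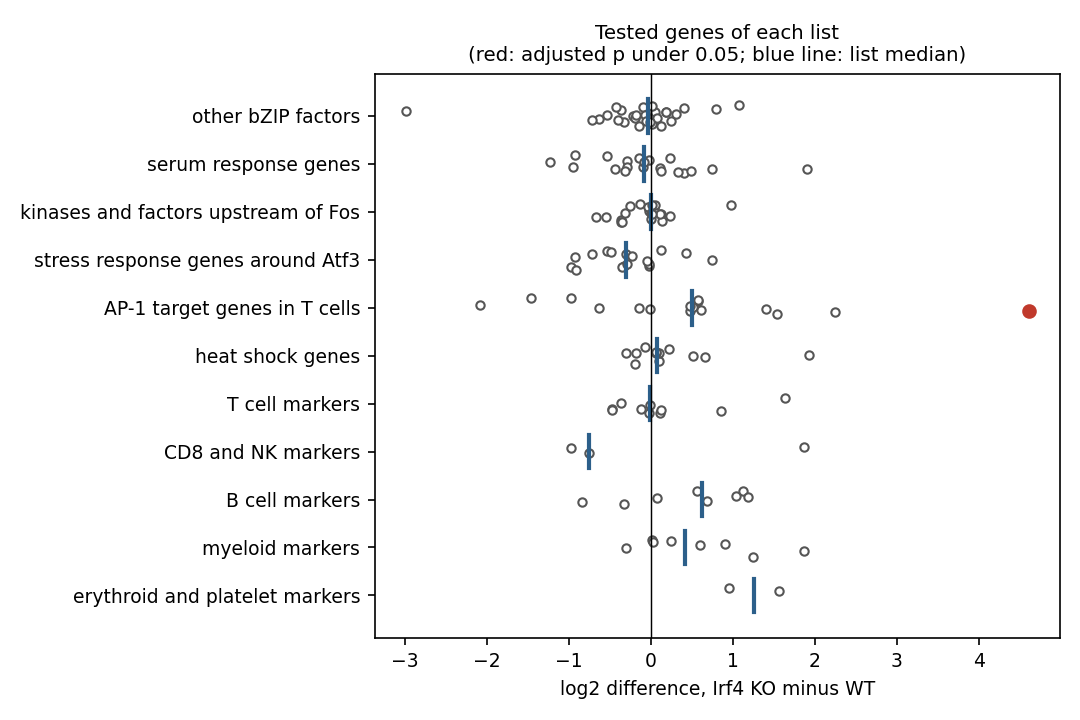
Log2 difference, Irf4 KO minus WT, of each tested gene in the lists around the members and in the marker lists; red points passed at an adjusted p under 0.05 and blue lines are list medians. Csf2 at 4.61 is the red point, and the medians run from -0.75 for CD8 and NK markers to 1.25 for the 2 tested erythroid and platelet markers.

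Markers of cells other than CD4+ T cells were read beside the members, since antigen-presenting cells were present in the culture, and in bulk RNA fewer cells of a type and less RNA per cell cannot be told apart. All 10 T cell markers were above background on every array, among them Cd3e (7.06 and 6.74 in KO cells, 7.06 and 6.76 in WT cells) and Cd4 (5.82 and 5.75 in KO cells, 5.83 and 5.51 in WT cells), and none was called. The list's largest differences were those of Trat1, a T cell receptor adaptor gene (1.64, adjusted p = 0.168; 0.96 and 2.31 in slide rows 1 and 2), Cd5 (0.86, adjusted p = 0.130), Cd2 (-0.48, adjusted p = 0.373) and Cd28 (-0.48, adjusted p = 0.407). None of 8 tested B cell markers was called (median 0.62). Sums here and below are in units of the array's 75th percentile. On each array they take every gene of the list, tested or not, whose probe was above background there. The B cell marker sum was 5.33 and 1.88 in KO cells and 2.91 and 1.43 in WT cells, and Ebf1 was not above background on any array. Blnk (1.19), Ms4a1 (1.13) and Cd79b (0.68) had positive differences with overlapping arrays (adjusted p from 0.604 to 0.877). In this list 6 differences were positive and 2 negative. The negative ones were Cd79a (-0.84) and Cr2 (-0.33), each above background on 3 arrays.

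None of 8 tested myeloid markers was called (median 0.42), 7 of the 8 differences were positive, and the sum was 85.1 and 100 in KO cells and 82.1 and 95.9 in WT cells. Most of that sum came from Siglech (5.79 and 6.17 in KO cells, 5.77 and 6.13 in WT cells) and Cst3, so dimmer markers hardly move it. Lyz2, Adgre1, S100a8, S100a9, Itgax, Clec9a and Xcr1 were not above background on any array. Tyrobp, an adaptor gene of myeloid and natural killer cells, read -0.78 and -0.47 in KO cells and -2.23 and -2.76 in WT cells (difference 1.87, adjusted p = 0.065). The dim markers Mpeg1 (1.25, adjusted p = 0.312), Fcer1g (0.90, adjusted p = 0.259) and Cd68 (0.60, adjusted p = 0.249) also had higher levels on both KO arrays. Of 3 tested CD8 and NK markers none was called (median -0.75), the sum was 9.45 and 9.36 in KO cells and 11.8 and 13.3 in WT cells, and Ncr1 was not above background on any array. Their differences went both ways. Klrd1, a natural killer cell receptor gene, read 1.52 and 1.86 in KO cells and -0.73 and 0.37 in WT cells (1.87, adjusted p = 0.157), while Cd8b1 differed by -0.98 (adjusted p = 0.0979) and Klrk1 by -0.75 (adjusted p = 0.302). Neither of 2 tested erythroid and platelet markers was called, the sum was 0.84 and 1.64 in KO cells and 0.645 and 0.373 in WT cells, Hba-a1 differed by 0.95 (adjusted p = 0.591), and Alas2, Pf4 and Ppbp were not above background on any array. Of 12 heat shock genes, read because cell handling can induce them together with Fos and Atf3, none was called. Their median was 0.08 and their sum was 1350 and 1170 in KO cells and 1340 and 1200 in WT cells. Among those above background on all 4 arrays, Bag3 differed by 0.66, Hspa1a by 0.51, Dnajb1 by -0.30 and Hsp90aa1 by -0.20 (adjusted p from 0.310 to 0.878). A larger difference was read for Hspb1 (1.93, adjusted p = 0.117), which was above background on 2 arrays. Hspb1 read -4.29 and -3.56 on the KO arrays and -5.51 and -6.21 on the WT arrays, so it was tested because of its KO arrays. Of the heat shock differences 8 were positive and 4 negative. At an unadjusted p under 0.05 in limma there were 4 of 10 T cell, 1 of 8 B cell, 4 of 8 myeloid and 3 of 3 CD8 and NK markers. The same held for 1 of 2 erythroid and platelet markers and 2 of 12 heat shock genes. Across all genes tested 11.4% had such a p and 0.736% were called. The part of any of these in the differences of the members was not tested.

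Genes with the profile most like each member were named by the distance between log2 profiles over the 4 arrays, each centred on its mean, among 11298 other genes above background on every array. The closest to Jdp2 were Neurl3 (distance 0.232), a ubiquitin ligase gene, and Ctsl (0.249), which encodes the lysosomal protease cathepsin L. Ctsl read 2.09 and 2.36 in KO cells and -0.33 and -0.10 in WT cells. The closest to Atf3 were the interleukin 2 receptor beta chain gene Il2rb (0.040) and Tuft1 (0.070). The closest to Fos were the cytokine gene Tnf (0.095) and the potassium channel gene Kcnn4 (0.107). For Fosb they were Mageb1 and Cib1, for Fosl1 Mxd4 and Akap7, and for Fosl2 Apoc2 and Eif4e3, at distances of 0.019 to 0.229. With 4 arrays and this many candidates, a small distance describes these arrays and is no test.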

How the data were processed

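Transcript levels were measured in 4 CD4+ T cell samples, 2 per genotype. Per the file headers, the authors made the deposited intensity values in Agilent Feature Extraction 11.0.1.1, with background and a spatial trend subtracted; the submitters' processing notes name version 9.1. The authors' deposited table of log2 values equalled the scaled log2 processed signals (r = 1 on each array) up to a shift of at most 0.029, centred per probe (medians -0.11 and 0.12 for KO arrays, -0.17 and 0.1 for WT arrays), and served as an alternative.

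Control spots and flagged spots were left out, spots of a probe were averaged as log2 values, and each array's 75th percentile was subtracted. Of 56605 probes 32994 matched a symbol in RefSeq (GRCm38.p6); the array was designed on another build, so coordinates are given only for the RefSeq sequences. Each gene was represented by its brightest probe, and 20505 genes with a probe well above background on each array of at least 1 genotype were tested with limma 3.58.1 in R 4.3.3 (2 residual and 2.95 prior degrees of freedom; steps tested on simulated data). Between 25677 and 28725 probes were above background per array; the number of arrays limits the precision. Normexp (offset 50) was run on median spot signals and followed by quantile normalization.

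All members and Irf4 are named; of each list, genes past the threshold (at most 6) and the 4 largest differences not past it among genes above background on all 4 arrays; and the 2 nearest profiles per member. Some results that the rule names are not reported here. The members and lists were chosen with earlier results of these data known. Alternatives are in the closing section. Promoter windows came from RefSeq, with 5 of 6 members matched.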

Additional observations from a re-analysis of the deposited data

How the results depend on the processing

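Across 14 alternatives Jdp2 was higher in KO cells throughout (2.11 to 2.73) and passed in 8. Its difference of 2.45 did not pass with the replicate block, which equals slide row (adjusted p = 0.0967), with quantile normalization (0.0969), without a filter on dim probes (0.492) or with the mean of a gene's probes (0.0517, where 126 genes were called). Leaving out 1 array gave 2.17 to 2.73, and it did not pass without either WT array. With limma's trend and robust options Atf3 (-0.81) passed (adjusted p = 0.0286). Signs turned for Fosl1 with normexp on median signals and quantile normalization together (-0.03), and, when 1 array was left out, for Fosl2 (-0.09 to 1.25) and Fosb (-0.04 to 0.41). Leaving out 1 array gave 0.30 to 0.92 for Fosl1 and -0.93 to -0.43 for Fos. Batf3 and Csf2 passed in 9 of 14 alternatives and Plb1 in 7 of 13; with normexp and quantile normalization Batf3 differed by -1.90 and Plb1 by 0.85. The causes were not tested. No other setting moved a member across the threshold.

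In place of 151 calls, limma called 0 genes with the replicate block (3195 at an unadjusted p under 0.05), 0 without a filter (2099) and 1 with quantile normalization. It called 260 with the deposited log2 table, 267 with every probe tested by itself and 436 with normexp and quantile normalization together. Trend and robust settings gave 797 calls. Median scaling gave 1042 and moved the median of all genes to -0.13. In that setting limma gave every member the same SE, 0.36, and the Jdp2 pass there (adjusted p = 6.82e-09) used it. Leaving out 1 array gave 0 to 487 calls; the count was 0 without WT replicate 1 (1864 unadjusted) or WT replicate 2 (1678). Deviations of same-numbered arrays correlated at 0.348, but the labels pair no samples and 2 pairs do not establish pairing.

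List medians moved in 27 of 77 list and setting combinations. With median scaling they were -0.20 for serum response genes, -0.11 for upstream kinases, 0.39 for AP-1 targets and -0.12 for T cell markers. In slide rows 1 and 2 they were -0.20 and 0.07 for serum response genes, 0.36 and 0.38 for AP-1 targets and -0.41 and -1.07 for CD8 and NK markers. Leaving out 1 array gave -0.18 to 0.07 for serum response genes, -0.07 to -0.01 for upstream kinases, -0.49 to -0.15 for stress genes, 0.35 to 0.53 for AP-1 targets, -0.10 to 0.22 for heat shock genes, -0.13 to 0.10 for T cell markers, -0.96 to -0.53 for CD8 and NK markers and 0.04 to 1.04 for B cell markers.

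Signal just over the background limit restricts what can be said of Fosl1.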
